A study of Mus musculus with 4 samples.

Results

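A set of 50 genes of the cell cycle and of DNA replication were followed across mouse embryonic fibroblasts (MEFs) in which the melanocyte regulator Mitf was induced. They were taken as a list of named genes, and all 50 of the 50 were found among the 22823 genes of the deposited exon table. The list holds 10 cyclin, CDK and CDC25 genes, 4 transcription factors, 11 genes of origin licensing and the replicative helicase, 5 genes of DNA synthesis, nucleotide supply and upkeep of DNA methylation, 8 mitotic kinases, checkpoint and anaphase-promoting complex genes, 9 kinetochore, spindle and cytokinesis genes, and 3 genes of mitotic chromatin.

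The study asked whether a single lineage regulator can turn fibroblasts towards the melanocyte fate, and sequenced poly(A) RNA from 1 library per condition. The MEF library came from wild-type MEFs at passage 3, which carry no transgene. The Dox (-) and Dox (+) libraries came from Mitf knock-in MEFs at passage 5, derived from chimeric embryos made with a single correctly targeted embryonic stem cell clone. Both carry the M2rtTA transactivator at ROSA26 and a tetO-driven cDNA of the melanocyte isoform of Mitf at Col1a1. A nuclear mCherry transgene was added separately to the targeted stem cells. Dox (+) cells had in addition received doxycycline for 6 days. Chimeric embryos also hold cells of the host blastocyst. The mCherry and puromycin markers allow transgenic cells to be purified, and whether these libraries were so purified is not given in the sources used here. No library of wild-type MEFs given doxycycline was part of the design, so the effects of Mitf and of the drug cannot be told apart. Primary melanocytes (PMel) were not analysed here. With 1 library per condition there was no replicate error and no test was possible. Intervals given below are exact 95% intervals for the ratio of 2 read counts on a gene's most abundant exon and cover counting error only.

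The depths that made the deposited values whole reads were 45000000 reads for MEF, 45000000 for Dox (-) and 44000000 for Dox (+). At these depths 3 reads on an exon of 150 bases correspond to 0.444 to 0.455 RPKM (reads scaled to exon length and to the aligned reads of the library). A gene's level below is the RPKM of its highest exon in that library, and its log2 fold change is taken after adding 1 RPKM. Mitf itself was at 1.52 RPKM in MEF, 30.8 RPKM in Dox (-) and 1544 RPKM in Dox (+), in the order of the labels. All 10 fibroblast markers checked were above 10 RPKM in each library. By more than 2-fold, 7 were higher in Dox (-) than in MEF, beside 17.3% of all genes above 10 RPKM in either library. From Dox (-) to Dox (+), 5 were lower by more than 2-fold, beside 11.1% of all such genes, and 0 higher. The largest fall was in Col3a1, at 3320, 10490 and 847 RPKM in MEF, Dox (-) and Dox (+). Thy1 (726, 2014 and 3608 RPKM) and Twist1 (127.5, 79.7 and 89.9 RPKM) were higher in Dox (+) than in Dox (-) by under 2-fold. The libraries also differed in other cells and in coverage. The summed level of 10 macrophage markers was 61.3 RPKM in MEF, 16000 RPKM in Dox (-) and 569 RPKM in Dox (+). Over 3390 genes with at least 4000 exonic bases, the median log2 difference between the exons nearer the 5′ end and those nearer the 3′ end was -0.24 in MEF, 0.17 in Dox (-) and 0.48 in Dox (+). Of 12 melanocyte markers, 5 were higher in Dox (+) than in Dox (-) by more than 2-fold, beside 10.8% of all such genes. Among them were Mlana at 0.58, 0.39 and 133 RPKM and Tyrp1 at 0, 0.52 and 110 RPKM in MEF, Dox (-) and Dox (+). Another 1 was lower in Dox (+), with a log2 fold change of -1.53, but was not above 10 RPKM in either library. Oca2 was listed at 0 in all 3 libraries. The part of these differences in the results below was not tested.

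Cells enter the cycle when D-type cyclins with CDK4 and CDK6 release E2F factors from the retinoblastoma proteins, which switches on the genes of S phase. Licensing factors load the MCM helicase on origins before S phase, and a later wave of transcription, driven through B-MYB, FOXM1 and the CHR promoter element, supplies the kinases, kinesins and checkpoint proteins of mitosis. MITF is known to influence both proliferation and cell cycle exit in the melanocyte lineage.

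The promoters of many, though not all, of these genes carry short elements of the 2 waves. RefSeq promoter windows of 300 bases (250 before to 50 after the start, assembly GRCm38.p6) were at hand for 38 of the 50 genes, with 41 windows in all. The other 12 are Ccnd1, Ccnd2, Ccne2, Ccna2, Cdc25c, Foxm1, Mcm4, Gins1, Gins2, Aurkb, Kif20a and Tpx2. Each window was searched on both strands. The CHR was taken as TTTGAA and the CCAAT box by its name. E2F-type letters were TTTGGCG, the near form TTTCGCG, or the other form TTCCCGC. E-box letters were CATGTG or the palindrome CACGTG. The windows of 4 genes are shown to set a mitotic cyclin gene and a mitotic chromatin gene beside a pair of licensing and helicase genes. They are in lower case with these matches (or their reverse complements) in capitals. They are Ccnb2, at chr9:70421505-70421804 on the minus strand; Mki67, at chr7:135716330-135716629 on the minus strand; Mcm6, at chr1:128359656-128359955 on the minus strand; and Cdt1, at chr8:122567765-122568064 on the plus strand.
Ccnb2: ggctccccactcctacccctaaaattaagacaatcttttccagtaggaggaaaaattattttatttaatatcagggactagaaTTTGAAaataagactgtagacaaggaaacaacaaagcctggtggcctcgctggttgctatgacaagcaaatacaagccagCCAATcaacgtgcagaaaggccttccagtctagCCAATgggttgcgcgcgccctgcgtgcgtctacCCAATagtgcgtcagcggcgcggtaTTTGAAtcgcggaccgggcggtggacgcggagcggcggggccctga
Mki67: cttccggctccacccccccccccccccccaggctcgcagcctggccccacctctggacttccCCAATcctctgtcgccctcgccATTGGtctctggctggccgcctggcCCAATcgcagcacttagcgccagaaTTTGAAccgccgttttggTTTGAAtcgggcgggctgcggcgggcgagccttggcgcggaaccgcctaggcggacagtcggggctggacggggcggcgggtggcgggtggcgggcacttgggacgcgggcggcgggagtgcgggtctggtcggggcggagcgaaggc
Mcm6: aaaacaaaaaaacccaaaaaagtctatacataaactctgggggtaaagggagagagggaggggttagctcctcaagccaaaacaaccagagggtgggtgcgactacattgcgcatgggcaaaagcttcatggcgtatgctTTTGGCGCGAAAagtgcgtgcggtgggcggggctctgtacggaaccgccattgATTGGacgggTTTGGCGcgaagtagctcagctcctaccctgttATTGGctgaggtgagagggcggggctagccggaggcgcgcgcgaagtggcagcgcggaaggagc
Cdt1: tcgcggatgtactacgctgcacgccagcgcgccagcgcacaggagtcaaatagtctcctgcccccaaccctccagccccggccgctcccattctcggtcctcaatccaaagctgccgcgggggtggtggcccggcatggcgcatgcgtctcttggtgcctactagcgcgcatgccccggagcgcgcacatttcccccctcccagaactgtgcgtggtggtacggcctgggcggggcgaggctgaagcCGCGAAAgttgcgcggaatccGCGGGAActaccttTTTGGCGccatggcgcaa
The Ccnb2 window held 2 CHR and 3 CCAAT matches, and the Mki67 window the same numbers. The Mcm6 window held 3 E2F-type and 2 CCAAT matches, of which 2 E2F-type matches on opposite strands overlap in the long run of capitals. The Cdt1 window held 3 E2F-type matches and neither of the other elements.

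The 2 waves differed in the letters they carried. The CHR stood in the windows of 13 of 17 mitotic genes (76.5%), of 2 of 13 replication genes (15.4%) and of 20.2% of all 27025 genes with a window. E2F-type letters stood in 8 of 13 replication genes (61.5%), in 0 of 17 mitotic genes and in 7.64% of all genes. Outside these groups, the Cdk1 window held 2 CHR and 1 E2F-type match. The Ccnb2 window held 2 CHR and 0 E2F-type matches. For E2f2, 1 window held 2 E2F-type matches and another held 1 CHR. The Ccnb1, Ccne1, Cdk4, E2f1 and Mybl2 windows held 0 of either. CCAAT stood in 76.3% of the 38 genes against 41.1% of all genes, and all 18 genes with a CHR held CCAAT as well. The E-box letters, of the kind MITF binds, stood in 8 of the 38 genes (21.1%), a share near the 22.7% of all genes. These are counts of letters, with no test.

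Most of the 50 genes were lower in Dox (+) than in Dox (-), and the mitotic genes were lower by more than the replication genes. The median log2 fold change was -1.30 over all 50 genes, with a range from -3.90 to 1.28, whereas the 13300 genes above 10 RPKM in either library had a median of 0.23. By the rule of a difference above 2-fold and a level above 10 RPKM in either library, 30 of the 50 genes (60.0%) were lower in Dox (+), against 11.1% of all genes, and 2 were higher, against 10.8% of all genes. With the 4-fold filter that the study applied elsewhere, 15 genes were lower, against 5.41% of all genes, and 0 were higher, against 1.64% of all genes. Of the 50 genes, 48 were above 10 RPKM in either library and 17 were above it in Dox (-) alone, a count for which no share of all genes was computed. The 2 left out were Cdc6 and E2f2, and with a limit of 1 RPKM, which all 50 genes passed, 32 were lower and 2 higher. In these bulk samples, fewer cycling cells and less of each RNA per cell cannot be told apart.

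**Figure D1:**
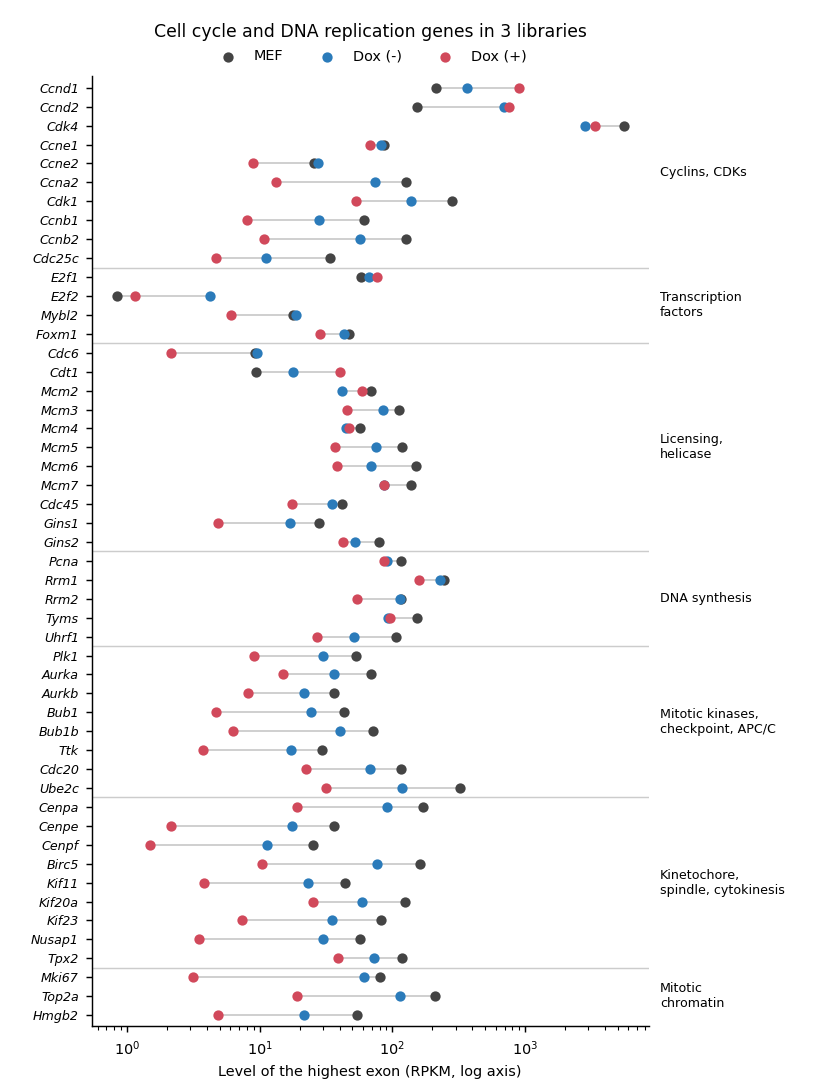
Level of the highest exon (RPKM, logarithmic axis) of each of the 50 genes in the MEF (grey), Dox (-) (blue) and Dox (+) (red) libraries, ordered by role, with 1 point per library and no error, as there was 1 library per condition. In 38 genes the points run from Dox (+) through Dox (-) to MEF, and in all 20 mitotic genes at the bottom Dox (+) is the lowest point.

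Mitotic chromatin held the gene with the largest difference. Mki67, which encodes the proliferation antigen Ki-67 that coats mitotic chromosomes (chr7:135689784-135716361, minus strand, mm10), was at 80.4 RPKM in MEF, 61.3 RPKM in Dox (-) and 3.17 RPKM in Dox (+). On its most abundant exon, 1150 reads in Dox (-) stood against 42 in Dox (+), a 26.8-fold lower density (interval 19.7 to 37.4). Top2a, the topoisomerase that untangles sister chromatids, was at 211 RPKM in MEF, 114 RPKM in Dox (-) and 19.1 RPKM in Dox (+). Both genes were thus lowest in Dox (+), and all 14 counted exons of Mki67 and all 36 of Top2a were lower there by more than 2-fold. Hmgb2, a high-mobility group protein abundant in dividing cells, was at 53.8, 21.5 and 4.83 RPKM in the same order of libraries.

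Kinetochore, spindle and cytokinesis genes came next, with a median log2 fold change of -2.33. By more than 2-fold 8 of 9 were lower and by more than 4-fold 7, beside 11.1% and 5.41% of all genes. Birc5, which encodes survivin of the chromosomal passenger complex, was at 162 RPKM in MEF, 76.5 RPKM in Dox (-) and 10.4 RPKM in Dox (+). Its most abundant exon had a 7.35-fold lower density in Dox (+) than in Dox (-) (interval 5.52 to 9.96). Nusap1, a microtubule binding protein of the spindle, was at 57.1, 29.8 and 3.50 RPKM, and Kif11, the kinesin that separates spindle poles, at 43.8, 23.2 and 3.82 RPKM. The levels of these 3 genes in Dox (+) lay well below those of both other libraries. Cenpe, a kinetochore motor, had 161 reads on its most abundant exon in MEF, 77 in Dox (-) and 3 in Dox (+). The last 2 differ 25.1-fold, with an interval from 8.27 to 124. The Cenpe level was at 36.5, 17.5 and 2.14 RPKM, an 8.14-fold difference between Dox (-) and Dox (+). Summed over its listed exons, Cenpe had 3158 reads in Dox (-) and 349 in Dox (+). Cenpf, a kinetochore and nuclear matrix protein, had 81, 37 and 0 reads on its most abundant exon, where the interval of the difference between Dox (-) and Dox (+) starts at 9.33-fold, and its level was at 25.0, 11.4 and 1.48 RPKM. Those 2 exons hold few reads, but all 44 counted exons of Cenpe and all 21 of Cenpf were lower in Dox (+) by more than 2-fold.

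The rest of this group had smaller differences. Cenpa, the histone H3 variant of centromeres, was at 171 RPKM in MEF, 90.9 RPKM in Dox (-) and 18.9 RPKM in Dox (+). Kif23, a cytokinesis kinesin, was at 81.7, 35.1 and 7.39 RPKM. Kif20a, another kinesin of cytokinesis, was at 124, 59.4 and 25.2 RPKM. Tpx2, which activates Aurora A on the spindle, stayed within 2-fold between Dox (-) and Dox (+), at 117, 72.8 and 39.2 RPKM, although its interval of 1.56 to 2.23-fold lower did not include 1.

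All 8 mitotic kinases, checkpoint and anaphase-promoting complex genes were lower in Dox (+) than in Dox (-) by more than 2-fold, beside 11.1% of all genes. Their median log2 fold change was -1.74. Bub1b, the checkpoint protein BUBR1, was at 71.6 RPKM in MEF, 40.0 RPKM in Dox (-) and 6.27 RPKM in Dox (+). Its partner kinase Bub1 was at 43.2, 24.2 and 4.65 RPKM, and Ttk, the checkpoint kinase MPS1, at 29.6, 17.2 and 3.71 RPKM. The 3 checkpoint genes thus reached single-digit levels in Dox (+). Plk1, a kinase needed through mitosis, was at 52.7, 29.9 and 9.09 RPKM and was 3.29-fold lower on 1 exon (interval 2.58 to 4.22). Cdc20, which activates the anaphase-promoting complex, was 3.64-fold lower (interval 2.82 to 4.73), with 495 reads in MEF, 290 in Dox (-) and 78 in Dox (+). Ube2c, the ubiquitin-conjugating enzyme of that complex, was at 321, 117 and 31.4 RPKM. Of the Aurora kinases, Aurka was at 68.7, 36.1 and 14.9 RPKM and Aurkb at 36.2, 21.6 and 8.12 RPKM. Every one of the 8 genes followed the same order, with MEF highest and Dox (+) lowest.

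**Figure D2:**
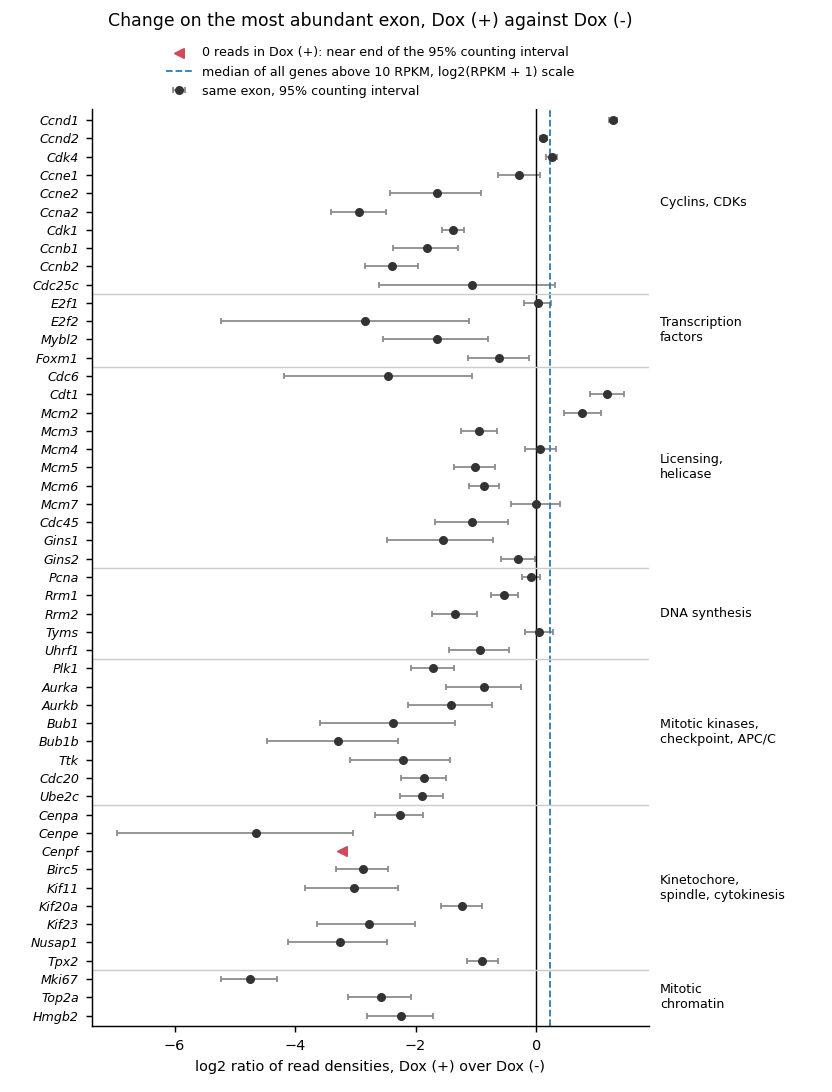
log2 ratio of read densities between Dox (+) and Dox (-) on the most abundant exon of each gene, with exact 95% counting intervals that hold no replicate error. The triangle marks Cenpf, with 0 reads in Dox (+), at the near end of its interval, 9.33-fold lower, and the dashed line is the median of all genes above 10 RPKM (0.23). All 20 mitotic genes lie left of 0, while replication genes lie on both sides.

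The cyclins split by phase. Ccna2, the cyclin of S phase and G2, was at 126 RPKM in MEF, 74.6 RPKM in Dox (-) and 13.4 RPKM in Dox (+), and its most abundant exon was 7.68-fold lower (interval 5.66 to 10.6). Of the mitotic cyclins, Ccnb2 was at 127, 56.9 and 10.9 RPKM and Ccnb1 at 60.7, 28.2 and 7.997 RPKM. Their kinase Cdk1 was at 281, 137 and 52.8 RPKM, a 2.60-fold lower density (interval 2.28 to 2.96). These 4 genes had MEF highest and Dox (+) lowest. Cdc25c, the phosphatase that activates CDK1, was at 34.0, 11.2 and 4.68 RPKM, but its most abundant exon had 15 reads in Dox (-) and 7 in Dox (+), and the interval of 0.80 to 6.08 included 1. Over its 11 counted exons, 10 were lower by more than 2-fold.

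The G1 cyclins were not lower as a group. Ccnd1, which encodes cyclin D1 of the entry into the cycle, was at 214 RPKM in MEF, 368 RPKM in Dox (-) and 891 RPKM in Dox (+). Its most abundant exon held 1539, 2647 and 6276 reads, a density 2.43-fold higher in Dox (+) than in Dox (-) (interval 2.32 to 2.54), and all 5 counted exons were higher. Ccnd2, cyclin D2, was at 154, 698 and 755 RPKM, so its main difference lay between MEF and the knock-in cells. Cdk4, the catalytic partner of the D-type cyclins, was at 5522, 2803 and 3347 RPKM, a level that rests on an exon of 16 bases. Of the E-type cyclins of the start of S phase, Ccne1 was at 86.4, 82.3 and 67.7 RPKM, with an interval between Dox (-) and Dox (+) that included 1, and Ccne2 was at 25.5, 27.6 and 8.84 RPKM.

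Among the transcription factors, Mybl2, which encodes B-MYB, was at 17.8 RPKM in MEF, 18.9 RPKM in Dox (-) and 6.06 RPKM in Dox (+). Foxm1, the factor of the G2 and mitosis genes, was at 46.9, 43.5 and 28.3 RPKM. E2f1, an activator of S phase genes, was at 58.0, 66.3 and 76.9 RPKM, and its interval between the last 2 included 1. By these levels Mybl2 was lower by more than 2-fold in Dox (+) and Foxm1 and E2f1 were not. The Foxm1 level rests on an exon of 45 bases, and summed over its listed exons, overlapping ones counted separately, Foxm1 had 3388 reads in Dox (-) and 1406 in Dox (+), with a level averaged over exon length of 11.9 and 5.04 RPKM, which is a difference above 2-fold. E2f2 had 3, 22 and 3 reads on its most abundant exon, which gave a 7.17-fold lower density in Dox (+) with a wide interval of 2.15 to 37.4.

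Licensing and helicase genes were mixed, with a median log2 fold change of -0.85. By more than 2-fold 3 of 11 were lower and 1 was higher, beside 11.1% and 10.8% of all genes. Of the 3, Mcm5 and Cdc45 lay at the limit, at 2.03-fold and 2.01-fold. Averaged over exon length, Mcm5 was at 24.8 and 13.6 RPKM and Cdc45 at 11.1 and 7.60 RPKM in Dox (-) and Dox (+), both below 2-fold. By more than 4-fold 0 were lower, beside 5.41% of all genes. The share higher (9.09%) is thus near that of all genes. The licensing factors themselves went apart. Cdt1, which loads the helicase with CDC6, was at 9.34 RPKM in MEF, 17.9 RPKM in Dox (-) and 40.2 RPKM in Dox (+). Its most abundant exon had a 2.25-fold higher density in Dox (+) than in Dox (-) (interval 1.86 to 2.73), and 2 of its 10 counted exons were lower. Cdc6 had 27 reads on its most abundant exon in MEF, 28 in Dox (-) and 5 in Dox (+), a 5.48-fold lower density in Dox (+) (interval 2.09 to 18.2).

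The 6 subunits of the MCM helicase did not move as 1 block. Mcm5 was at 118 RPKM in MEF, 75.4 RPKM in Dox (-) and 37.2 RPKM in Dox (+), at the 2-fold limit. Mcm3 was at 111, 84.9 and 45.5 RPKM, and Mcm6 at 150, 69.0 and 37.9 RPKM. These 3 were lower in Dox (+) than in Dox (-) by more than counting error on their most abundant exons, and the other 3 were not. Mcm2 was at 69.0, 41.6 and 59.0 RPKM, a density 1.70-fold higher in Dox (+) than in Dox (-) on 1 exon (interval 1.38 to 2.10), with 0 of 15 counted exons lower. Mcm4 was at 57.1, 44.7 and 46.8 RPKM, and Mcm7 at 139, 86.4 and 85.9 RPKM, both with intervals that included 1. Summed over the listed exons, Mcm4 had 4241 reads in Dox (-) and 3698 in Dox (+), and Mcm7 4190 and 3597, and 11 of 16 counted exons of Mcm4 and 22 of 28 of Mcm7 were lower in Dox (+). Of the partners that complete the active helicase, Gins1 was at 28.2, 16.9 and 4.85 RPKM, Cdc45 at 41.7, 34.9 and 17.4 RPKM, and Gins2 at 79.6, 52.2 and 42.3 RPKM. Gins1 had the largest difference of these. The Gins2 level rests on an exon of 100 bases. Summed over its listed exons, Gins2 had 2267 reads in MEF, 4346 in Dox (-) and 2235 in Dox (+), which places Dox (-) highest.

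Genes of DNA synthesis had the smallest median difference of the 7 groups, with a log2 fold change of -0.53. By more than 2-fold 1 of 5 was lower, beside 11.1% of all genes. Rrm2, the regulated subunit of ribonucleotide reductase, was at 116 RPKM in MEF, 114 RPKM in Dox (-) and 54.2 RPKM in Dox (+). Its larger partner Rrm1 was at 244, 227 and 157 RPKM. Pcna, the sliding clamp of the polymerases, was at 116, 91.5 and 86.3 RPKM, and Tyms, thymidylate synthase, at 153, 92.6 and 95.6 RPKM, both with intervals between Dox (-) and Dox (+) that included 1. Uhrf1, which carries DNA methylation through replication, was at 106, 51.5 and 26.9 RPKM.

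Set side by side, the 20 mitotic genes had a median log2 fold change of -2.13, with 19 lower by more than 2-fold and 13 by more than 4-fold. The 16 replication genes had a median of -0.69, with 4 lower and 1 higher by more than 2-fold and 0 lower by more than 4-fold. Of all genes, 11.1% were lower and 10.8% higher by more than 2-fold, and 5.41% lower by more than 4-fold. Among the 38 genes with a promoter window, the 18 with a CHR had a median of -1.95 and the 20 without had -0.90. The 10 with E2F-type letters had a median of -0.90 and the 28 without had -1.91. These medians follow the same division of the genes and were not tested.

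The differences held along the transcripts. Of 702 exons of the 50 genes with at least 20 reads in either library, 625 (89.0%) had a lower value in Dox (+) and 444 (63.2%) were lower by more than 2-fold, against 41.8% and 13.8% of the 169716 such exons of all genes. In 37 genes every counted exon was lower, and in 3 every counted exon was higher. Exons nearer the 3′ end and exons nearer the 5′ end were lower alike in 40 of 50 genes, and higher alike in 5. The 5 others, Ccnd2, E2f1, Mcm4, Mcm7 and Pcna, all had small differences. These counts of genes have no share of all genes beside them, as none was computed.

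Scaling bears on the genes near 0. Relative to the shift of 0.23 in the median of all expressed genes, Ccnd2, E2f1, Mcm4 and Tyms turned from higher to lower in Dox (+). Relative to 10 housekeeping genes, whose median shift was 0.37, Cdk4 turned as well, and no member counted as higher by more than 2-fold. Ccnd1, Cdt1 and Mcm2 kept their direction under both.

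**Figure D3:**
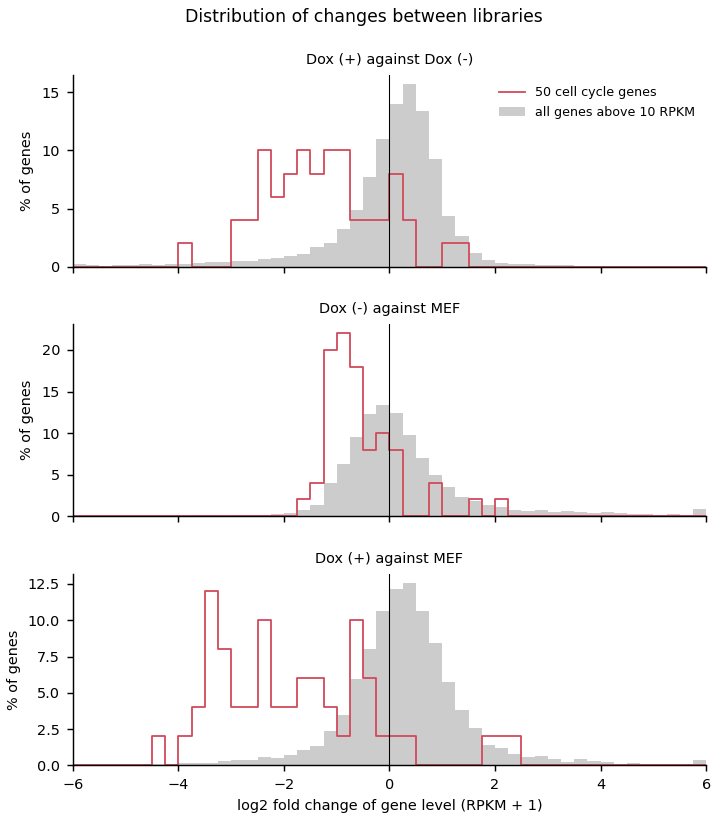
Share of genes (percent, vertical axes) by log2 fold change of the gene level after adding 1 RPKM (horizontal axis, bins of 0.25) for the 50 cell cycle and replication genes (red line) and all genes above 10 RPKM in either library (grey bars). The medians of the 50 genes are -1.30, -0.74 and -1.99 from top to bottom, against 0.23, 0.01 and 0.27 for all genes. All genes beyond 6 on either side are in the outermost bins.

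The knock-in cells without Dox were compared with wild-type MEFs to see where the genes stood before induction. The libraries differ in passage, origin and transgenes as well, which cannot be told apart. The 50 genes had a median log2 fold change of -0.74 in Dox (-) against MEF, when the 13227 genes above 10 RPKM had 0.01. By the 2-fold rule 13 genes were lower in Dox (-), against 7.93% of all genes, and 1 was higher, against 17.3% of all genes. By the 4-fold filter 0 were lower, against 1.21% of all genes, and 1 was higher, against 8.26% of all genes. The 1 higher gene was Ccnd2 in both cases. The lower ones included Cdc25c, with a log2 fold change of -1.52, Ube2c with -1.44 and Hmgb2 with -1.29.

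Coverage and scaling bear on this comparison too. In 8 genes (Ccne2, Cdc6, Cdt1, Cenpe, Cenpf, Mki67, Pcna and Rrm2) the exons nearer the 3′ end were lower in Dox (-) than in MEF and the exons nearer the 5′ end were higher. In 3 genes (Aurkb, Ccne1 and Gins2) the split was the opposite. When the libraries were scaled on housekeeping genes, whose median shift was -0.37, the median of the 50 genes became -0.38, 2 genes were lower by more than 2-fold, and 7 genes turned from lower to higher.

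**Figure D4:**
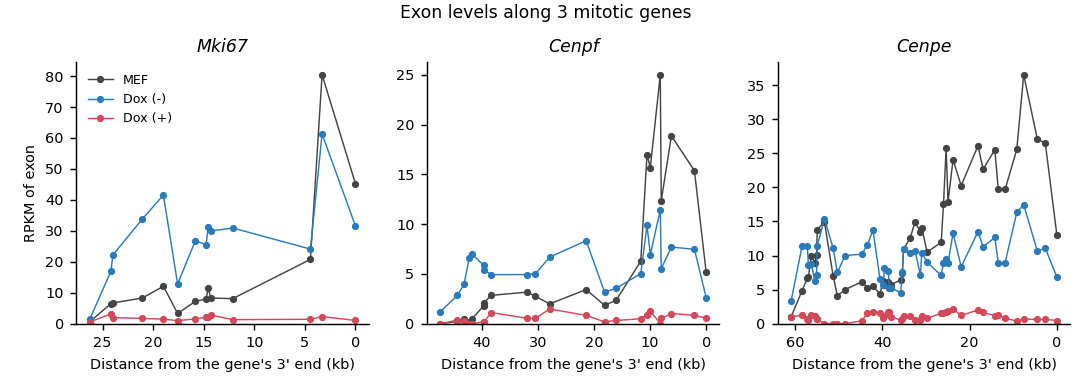
RPKM of each exon (vertical axes) of Mki67, Cenpf and Cenpe against its distance from the gene's 3′ end in kb (horizontal axes, the 3′ end at the right) in MEF (grey), Dox (-) (blue) and Dox (+) (red). Dox (+) lies lowest over nearly all exons, with all counted exons lower than in Dox (-) by more than 2-fold, while MEF and Dox (-) cross, with MEF above Dox (-) near the 3′ end.

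Dox (+) against MEF gave the widest differences. It shares its libraries with the other comparisons and adds no independent evidence. The 50 genes had a median log2 fold change of -1.99, when the 12935 genes above 10 RPKM had 0.27. By the 2-fold rule 34 genes (68.0%) were lower in Dox (+), against 8.98% of all genes, and 3 were higher, against 20.2% of all genes. By the 4-fold filter 25 were lower, against 3.4% of all genes, and 3 were higher, against 6.56% of all genes. The 3 higher genes were Ccnd1, Ccnd2 and Cdt1. All 20 mitotic genes were lower by more than 2-fold and 19 by more than 4-fold, with a median of -3.23, while the 16 replication genes had a median of -0.99. Of the 50 genes, 38 held the order of MEF, Dox (-) and Dox (+) from highest to lowest, and 4 held the opposite order.

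Macrophage markers moved with the Dox (-) library. All 10 were lower in Dox (+) than in Dox (-) by more than 4-fold, beside 5.41% of all genes, with a median log2 fold change of -4.88. Their levels ranged from 58.2 to 10820 RPKM in Dox (-), from 1.99 to 379 RPKM in Dox (+) and from 0.60 to 27.8 RPKM in MEF. The most abundant in Dox (-) were Lyz2, Tyrobp and Laptm5. The part of these cells in the difference between Dox (+) and Dox (-) was not tested.

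Wider lists of the same pathways gave the same division. They were chosen with earlier results of these data known and read in the same libraries, so they add no independent evidence. Of 41 other mitotic genes, 31 were lower in Dox (+) than in Dox (-) by more than 2-fold (11.1% of all genes), 16 by more than 4-fold (5.41% of all genes) and 0 higher by more than 2-fold (10.8% of all genes), with a median log2 fold change of -1.67. Cdca3, a regulator of mitotic entry, was at 451 RPKM in MEF, 250 RPKM in Dox (-) and 23.9 RPKM in Dox (+). Sgo1, which guards centromeric cohesion, was at 23.2, 23.2 and 1.55 RPKM, and Cdkn3, a phosphatase of CDKs, at 120, 45.1 and 4.97 RPKM. The levels of all 3 in Dox (+) were a small part of those in Dox (-). The exceptions were Zwint, a kinetochore protein, at 455, 536 and 811 RPKM, Pttg1, securin, at 173, 82.0 and 103 RPKM, and Ccnf, cyclin F, at 30.4, 22.1 and 22.2 RPKM, the 3 with a log2 fold change above 0. For Ccnf this holds for the highest exon only. Of its 16 counted exons 15 were lower in Dox (+), and its level averaged over exon length was 11.8 RPKM in Dox (-) and 9.18 RPKM in Dox (+).

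Of 38 other S phase genes, 9 were lower in Dox (+) than in Dox (-) by more than 2-fold (11.1% of all genes), 2 by more than 4-fold (5.41% of all genes) and 0 higher, with a median of -0.47. Mcm10, a replication initiation factor, was at 19.6 RPKM in MEF, 15.5 RPKM in Dox (-) and 2.33 RPKM in Dox (+), Clspn, claspin of the replication checkpoint, at 23.3, 15.8 and 2.84 RPKM, and Tk1, thymidine kinase, at 141, 81.9 and 27.7 RPKM. At the other end Pold1, the catalytic subunit of polymerase delta, was at 34.4, 19.2 and 30.5 RPKM, Rfc3, a clamp loader subunit, at 82.4, 47.9 and 70.9 RPKM, and Cdc25a, the G1 phosphatase of CDKs, at 57.7, 40.8 and 59.6 RPKM. These 3 stood higher in Dox (+) than in Dox (-) by under 2-fold.

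The brakes of the cycle did not share a direction. Among 10 CDK inhibitors and pocket proteins, 2 were lower in Dox (+) than in Dox (-) by more than 2-fold and 0 higher, beside 11.1% and 10.8% of all genes, with a median of -0.19. Cdkn1a, which encodes the inhibitor p21, was at 192 RPKM in MEF, 1019 RPKM in Dox (-) and 1602 RPKM in Dox (+), so that its largest step lay between MEF and the knock-in cells. Cdkn2a, the locus of p16 and ARF, was at 112, 173 and 222 RPKM, and its neighbour Cdkn2b, p15, at 56.2, 96.3 and 105 RPKM. Cdkn1a, Cdkn2a and Cdkn2b were thus lowest in MEF. The genes lower in Dox (+) were Cdkn2c, p18, at 55.6, 36.0 and 12.0 RPKM, and Cdkn1c, p57, at 71.9, 42.5 and 20.4 RPKM. Cdkn1b, p27, was at 117, 50.2 and 42.1 RPKM, and Cdkn2d, p19, at 21.4, 20.7 and 11.6 RPKM. The pocket proteins Rb1 (44.9, 68.1 and 61.8 RPKM), Rbl1 (20.4, 15.2 and 15.7 RPKM) and Rbl2 (54.3, 52.7 and 41.0 RPKM) all stayed within 2-fold between Dox (-) and Dox (+). The exons behind the levels of Cdkn1a, Rbl2 and Pkmyt1 overlap another annotated gene, and whether counting used strand is not given, so these 3 levels are uncertain.

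Of 15 other cyclin, CDK and E2F genes, 1 was higher and 1 lower in Dox (+) than in Dox (-) by more than 2-fold, beside 10.8% and 11.1% of all genes, with a median log2 fold change of 0.28. Ccnd3, cyclin D3, was at 161, 257 and 583 RPKM in MEF, Dox (-) and Dox (+). The last of these levels rests on an exon of 19 bases. All 26 counted exons of Ccnd3 were higher in Dox (+) than in Dox (-), but only 3 by more than 2-fold. Its Dox (-) and Dox (+) levels averaged over exon length were 88.6 and 132 RPKM, which is below 2-fold. Cdk6, the other kinase of the D-type cyclins, was at 10.9, 28.3 and 51.7 RPKM, and Wee1, which restrains CDK1, at 35.0, 25.9 and 48.1 RPKM. In the other direction Pkmyt1, a kinase with the same task, was at 30.2, 25.4 and 12.0 RPKM, Cdc25b, a mitotic phosphatase, at 54.7, 44.4 and 25.8 RPKM, and Cdk2, the partner of cyclins E and A, at 70.9, 59.7 and 57.5 RPKM. All 3 D-type cyclins therefore stood higher in Dox (+) than in MEF, in a library where Ccna2, Ccnb1 and Ccnb2 were lowest.

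Against MEF the same lists gave the following. In Dox (-), 13 of the 41 other mitotic genes were lower by more than 2-fold and 1 was higher, and 2 of the 38 other S phase genes were lower and 0 higher, beside 7.93% of all genes lower and 17.3% higher. The S phase share lower by more than 2-fold is thus below that of all genes. Yet 36 of the 38 S phase genes were lower by some amount. Their median log2 fold change was -0.51, against 0.01 for all genes above 10 RPKM. The lowest mitotic log2 fold changes were -1.51 for Anln, the cytokinesis scaffold anillin, -1.51 for Ncapg, a condensin subunit, and -1.49 for the kinesin Kif15, and the highest were 1.09 for Bora, an activator of Aurora A, 0.62 for the condensin subunit Smc2 and 0.23 for Zwint. Among S phase genes they were -1.81 for the primase Prim1, -1.13 for the clamp loader subunit Rfc4 and -0.94 for Dut, which clears dUTP, with Fen1, the flap endonuclease, at 0.33 and Rfc5 at 0.02 the only 2 above 0. The exons behind Ncapg, Fen1 and Rfc5 overlap another annotated gene. Among the other cyclins, CDKs and E2Fs, Cdk6, Ccng1, a target of p53, and E2f3 were highest, at 1.30, 1.29 and 1.17, and Ccng2, Wee1 and E2f5 lowest, at -0.92, -0.42 and -0.31.

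In Dox (+) against MEF, 34 of the 41 mitotic genes were lower by more than 2-fold and 26 by more than 4-fold, beside 8.98% and 3.4% of all genes, with the log2 fold changes of Cdkn3, Anln and Ncapg lowest at -4.34, -4.30 and -4.26, and Zwint and Bora alone above 0, at 0.83 and 0.54. Of the 38 S phase genes, 19 were lower by more than 2-fold and 8 by more than 4-fold, beside the same shares of all genes. Clspn, Mcm10 and Tk1 were lowest, at -2.66, -2.63 and -2.31, and Rfc5, Fen1 and Cdc25a highest, at 0.53, 0.05 and 0.05. Of the 15 other cyclin, CDK and E2F genes, 5 were higher and 2 lower by more than 2-fold, beside 20.2% and 8.98% of all genes, with Cdk6, Ccnd3 and Ccng1 highest at 2.15, 1.85 and 1.54, and Pkmyt1, Cdc25b and Ccng2 lowest at -1.27, -1.06 and -0.39. The mitotic genes were thus the ones furthest below wild-type MEFs in the wider lists as among the 50 genes.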

How the data were processed

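Poly(A) RNA was sequenced from 4 conditions with 1 library each. The authors aligned reads to mm10 with TopHat2 2.0.10, after bcl2fastq 2.17.1.14 per the labels, took exon counts over the Ensembl annotation from bedtools, and deposited them as RPKM. The study's methods describe keeping protein coding, pseudogene and lincRNA exons and then those with a value above 10 RPKM in some library. The table is not cut to the latter in the libraries used here, since 87723 listed exons were not above 10 RPKM in any of the 3. Whether counting used strand is not given in the sources used here. Columns were assigned by name, and 1 column whose name matched no library was not used, so PMel was not analysed here.

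Of 234718 listed exons, 6586 matched no exon of GENCODE M21 and were dropped. Reads were recovered from RPKM, exon length and a whole-number divisor per library between 20 and 80, and at least 96.9% of values below 200 reads came out within 0.02 of a whole number. The gene level was the highest exon. The main rule was above 10 RPKM in at least 1 of 2 libraries and more than 2-fold, without a pseudocount, and log2 values used a pseudocount of 1. Named genes were all members, all CDK inhibitors and pocket proteins, and up to 3 extremes in each direction and comparison of the other lists. The members and lists were chosen with earlier results of these data known. Scripts ran under Python 3.11.15 with SciPy 1.17.1 and were tested on simulated data. No p-values were computed.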

Additional observations from a re-analysis of the deposited data

How the results depend on the processing

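Of 84 alternative values, 71 moved by less than the counting error (medians) or 1.5 times (counts), and 0 reversed a median. For Dox (+) against Dox (-), the genes lower by more than 2-fold went from 30 to 16 with a limit of 30 RPKM and to 15 with a 4-fold threshold, and the genes higher went from 2 to 1 when libraries were rescaled to a median ratio of 1, to 0 at 4-fold and to 0 when rescaled on housekeeping genes. For Dox (-) against MEF, rescaling on housekeeping genes moved the median from -0.74 to -0.38, the genes lower from 13 to 2 and the genes higher from 1 to 3, using the same exon in all libraries gave 2 higher, a limit of 1 RPKM gave 2 higher, a 4-fold threshold gave 0 lower, the exons nearer the 3′ end gave 2 higher and those nearer the 5′ end 3. The medians of Dox (+) against Dox (-) ranged from -1.60 to -1.04, and no value of Dox (+) against MEF moved. The rescaling on housekeeping genes, exons of at least 100 bases and the split of exons by end were chosen after seeing the data. No paired analysis was possible because there was 1 library per condition, which also left no replicate to leave out, and comparisons with PMel were not run. Depth limits Cdc6, Cdc25c, E2f2, Cenpe and Cenpf, whose most abundant exon held few reads in Dox (+).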

Other observations

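The order of MEF and Dox (-) depended on the exon for some long mitotic genes. On Mki67, the 2 exons nearest the 3′ end were lower in Dox (-) than in MEF (498 against 713 reads, and 1150 against 1509 reads), while the exon of 6836 bases next to them held 7415 against 6389 reads and the 172-base exon beyond it 232 against 64 reads. Summed over its listed exons, Mki67 had 9202 reads in MEF, 11120 in Dox (-) and 641 in Dox (+), so the level of its highest exon and its summed reads place MEF and Dox (-) in opposite orders, and both place Dox (+) last.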
